A study of Mus musculus with 18 samples.

Results

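The regions described here, called B-high regions below, are stretches of open chromatin at which B cells stood fully above T cells in patches of mouse spleen. A region was taken when the lowest of the 5 B patch libraries exceeded the highest of the 5 T patch libraries in counts scaled to 1e+06 nuclear counts (CPM) and the mean of the B patches was at least 10 CPM. This gave 1106 of 27392 nuclear regions, or 4.04%, which is 5.83% of the 18972 regions with a mean of at least 10 CPM in B patches. The other 17866 of those regions serve as the comparison set. The B-high regions were thus chosen by their CPM in the 10 patch libraries, which are given as a description, and comparisons rest on the libraries of 100 nuclei, on gene positions and on sequence, which the choice did not use.

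The study tagmented spleen sections with the transposase of ATAC-seq, which cuts open DNA, and then cut out immunostained B or T cells with a laser. All mice were of the strain C57BL/6J with a wt genotype, and no treatment or age is given in the sources used here. Patches gave 5 B and 5 T libraries, and captures of 100 nuclei gave 4 B and 4 T libraries. A patch library pooled 10 captured areas of about 1000 nuclei in all, and the smaller libraries pooled 100 nuclei captured singly. Within a group the libraries were technical replicates, and no label ties one to an animal, so p-values measure only the spread between libraries.

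Splenic B cells gather in follicles and in the marginal zone, and T cells in the sheath around the central arteriole. B cell identity is kept by transcription factors such as EBF1 and PAX5, which act at promoters and at distal enhancers. Mature B cells carry the B cell receptor with its signalling chains CD79A and CD79B, present antigen on MHC class II molecules and sense microbial nucleic acids through Toll-like receptors.

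Among the B-high regions, 125 overlapped 147 promoter windows of 138 genes in RefSeq's table for GRCm38.p6, each running from 250 bases before to 50 bases after a gene's start. Of the genes in 5 B cell lists, 22 had their own window overlapped. Below are 6 windows, picked after their values were seen, that show genes of several roles: a B cell surface receptor (Cr2), an adaptor of the B cell receptor (Blnk), a nucleic acid sensor (Tlr9), a lineage factor (Pax5) and a pair of MHC class II chains (H2-Aa and H2-Eb1). They are written 5′ to 3′ on the gene's strand. Capitals mark matches, on either strand, to 8 motifs: ATGCAAAT (octamer, bound by Oct-1 and Oct-2), CCCNNGGG (core of the EBF1 site), GAGGAA (PU.1 and Spi-B core), GAANNGAAA (IRF), GATTGG (the Y box of MHC class II genes, bound by NF-Y), CAGNTG (E-box of the E2A type), TGTGGT (RUNX) and CTTTGA (TCF and LEF).
Cr2, chr1:195176670-195176969, minus strand: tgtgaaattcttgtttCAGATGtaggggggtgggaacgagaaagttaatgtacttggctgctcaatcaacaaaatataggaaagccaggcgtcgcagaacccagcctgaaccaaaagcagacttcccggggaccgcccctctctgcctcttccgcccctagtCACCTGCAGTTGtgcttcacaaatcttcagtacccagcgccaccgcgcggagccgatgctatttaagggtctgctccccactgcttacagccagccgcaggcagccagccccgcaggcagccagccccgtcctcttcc
Blnk, chr19:40994172-40994471, minus strand: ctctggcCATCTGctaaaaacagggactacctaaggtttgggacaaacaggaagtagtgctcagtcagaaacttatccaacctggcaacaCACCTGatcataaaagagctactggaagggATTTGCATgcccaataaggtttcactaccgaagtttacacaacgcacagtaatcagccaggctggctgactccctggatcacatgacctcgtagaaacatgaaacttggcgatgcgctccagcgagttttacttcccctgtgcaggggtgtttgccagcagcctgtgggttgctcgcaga
Tlr9, chr9:106222348-106222647, plus strand: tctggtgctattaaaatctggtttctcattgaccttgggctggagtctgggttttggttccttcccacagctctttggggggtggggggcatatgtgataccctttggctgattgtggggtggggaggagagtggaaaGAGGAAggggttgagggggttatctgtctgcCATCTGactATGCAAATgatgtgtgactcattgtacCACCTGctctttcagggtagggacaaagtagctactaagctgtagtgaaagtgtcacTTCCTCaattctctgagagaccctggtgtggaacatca
Pax5, chr4:44710645-44710944, minus strand: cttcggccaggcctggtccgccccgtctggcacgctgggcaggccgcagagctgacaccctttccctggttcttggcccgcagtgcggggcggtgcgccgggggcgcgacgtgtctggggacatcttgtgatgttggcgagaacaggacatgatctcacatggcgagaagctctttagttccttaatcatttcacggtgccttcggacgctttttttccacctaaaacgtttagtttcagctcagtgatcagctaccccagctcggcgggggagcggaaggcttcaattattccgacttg
H2-Aa, chr17:34287774-34288073, minus strand: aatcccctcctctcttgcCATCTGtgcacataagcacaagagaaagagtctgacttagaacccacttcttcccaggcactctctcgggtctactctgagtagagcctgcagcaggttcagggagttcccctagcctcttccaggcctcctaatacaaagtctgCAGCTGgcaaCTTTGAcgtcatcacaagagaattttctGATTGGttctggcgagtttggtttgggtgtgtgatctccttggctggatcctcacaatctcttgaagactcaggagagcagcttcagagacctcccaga
H2-Eb1, chr17:34305617-34305916, plus strand: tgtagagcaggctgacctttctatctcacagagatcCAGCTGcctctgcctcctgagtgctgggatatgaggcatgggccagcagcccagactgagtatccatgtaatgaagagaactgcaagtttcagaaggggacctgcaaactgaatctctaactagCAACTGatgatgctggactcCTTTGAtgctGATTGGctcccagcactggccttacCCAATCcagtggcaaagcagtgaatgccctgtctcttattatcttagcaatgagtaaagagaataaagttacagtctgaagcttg

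Motifs were searched over whole windows, and B-high regions covered only part of most of them. Of 300 bases the overlap was 265 at Cr2, 173 at Blnk, 300 at Tlr9, 138 at Pax5, 277 at H2-Aa and 229 at H2-Eb1. Matches can thus lie outside the B-high region, as the CAGNTG matches of the Blnk window did. Both the Blnk and the Tlr9 window held the octamer, at bases 121 to 128 and 179 to 186 of the window. At Blnk it straddled the edge of the B-high region, with most of its bases outside the overlap. The H2-Aa window had GATTGG at bases 202 to 207. In H2-Eb1 it stood at bases 191 to 196 and, on the other strand, at 216 to 221. The Cr2 window held CAGNTG 3 times, a pair of them side by side at bases 163 to 168 and 169 to 174. None of the 8 motifs was in the Pax5 window. Over promoter windows, the octamer was in 4.08% (6 of 147) of those at B-high regions, against 1.34% of 9157 windows at comparison regions and 1.74% of all 32851 windows. CCCNNGGG was in 25.2%, 18.6% and 13.7% in the same order, and CAGNTG in 54.4%, 40.3% and 51.4%. GAGGAA was in 28.6%, 25.4% and 28.3%, GAANNGAAA in 8.84%, 5.27% and 7.52%, and TGTGGT in 17.0%, 11.3% and 16.8%. GATTGG was in 23.8%, 23.7% and 16.1%, so its share at B-high regions was that of other open promoters, and CTTTGA was in 10.2%, 10.8% and 16.003%. The median GC content was 60.3% at B-high regions, 62.7% at comparison regions and 52.7% over all windows. GAGGAA and CTTTGA are short and frequent in any sequence, several motifs can overlap, and a match is not a bound site. Regions away from promoters are given by position only, since no genome was used here.

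Nuclear counts were 1863884 to 5324006 per library in B patches and 1722193 to 6136842 in T patches, and 327099 to 400144 in B and 241786 to 715288 in T at 100 nuclei. T libraries 3 and 4 of 100 nuclei stood apart: they had reads in 14.4% and 12.03% of nuclear regions, against 38.8% and 38.5% in T libraries 1 and 2, and their TMM factors were 1.59 and 1.998 against 0.77 and 0.76. Counts and shares over the B-high regions at 100 nuclei are therefore also given without them, and values of single regions are given for each library. Mitochondrial reads took 18.8% to 33.6% of counts in B patches and 16.1% to 23.1% in T patches, and 29.4% to 45.8% in B and 24.3% to 33.6% in T at 100 nuclei. They are outside every CPM here, and their part in the results was not tested. In these captures, fewer cells of a type and fewer reads per cell cannot be told apart. Regions of 28 T cell identity genes took 0.144% to 0.186% of nuclear counts in B and 0.410% to 0.670% in T at 100 nuclei, without overlap.

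The B-high regions ranged widely in how far the groups were apart. The fold of mean CPM, B over T patches, had a median of 5.598 (quartiles 3.65 and 9.45), and the means had medians of 40.1 CPM in B patches and 7.23 CPM in T patches. The lowest B library was 1.47 times the highest T library in the median region (quartiles 1.17 and 2.08). In 640 of the regions at least 1 T patch library had 0 counts, and in 3 all of them did. At the margin of the rule, B patch library 5 was the lowest B library in 37.0% of the regions and T patch library 5 the highest T library in 29.1%. Just inside the limit of 10 CPM were regions of 10.06, 10.09 and 10.34 CPM, the last inside Hfm1, and just outside it were regions inside Akap9 and Rad51b and beside 1110059E24Rik, at 9.997, 9.940 and 9.895 CPM. Just inside the limit on separation, the lowest B library was at 173.3 CPM and the highest T library at 173.0 CPM near an end of Dennd4b. The region beside Nr4a1 fell just outside, at 112.7 CPM in the lowest B and 112.9 CPM in the highest T library. Another 28 regions were fully apart but under 10 CPM.

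At 100 nuclei, libraries that had no part in the choice, the B-high regions held a larger share of reads in each B library than in any T library. They took 5.10%, 6.24%, 5.79% and 6.22% of nuclear counts in the 4 B libraries, against 2.197%, 2.33%, 2.38% and 2.52% in the 4 T libraries. The groups did not overlap. The B libraries averaged 5.83% ± 0.533 and the T libraries 2.36% ± 0.132 (SD, n = 4 each), a difference of 3.48 points and a ratio of 2.48. Without T libraries 3 and 4 the T mean was 2.26% and the ratio 2.58. In patches, where the values chose the regions, the shares were 6.42%, 7.17%, 5.82%, 6.28% and 5.10% in B and 1.84%, 1.41%, 1.73%, 1.87% and 2.11% in T. The B libraries of 100 nuclei overlapped the B patches, while each T share at 100 nuclei lay above the highest T patch. Comparison regions took 88.0% to 89.1% of nuclear counts in B and 86.5% to 89.6% in T at 100 nuclei.

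**Figure D1:**
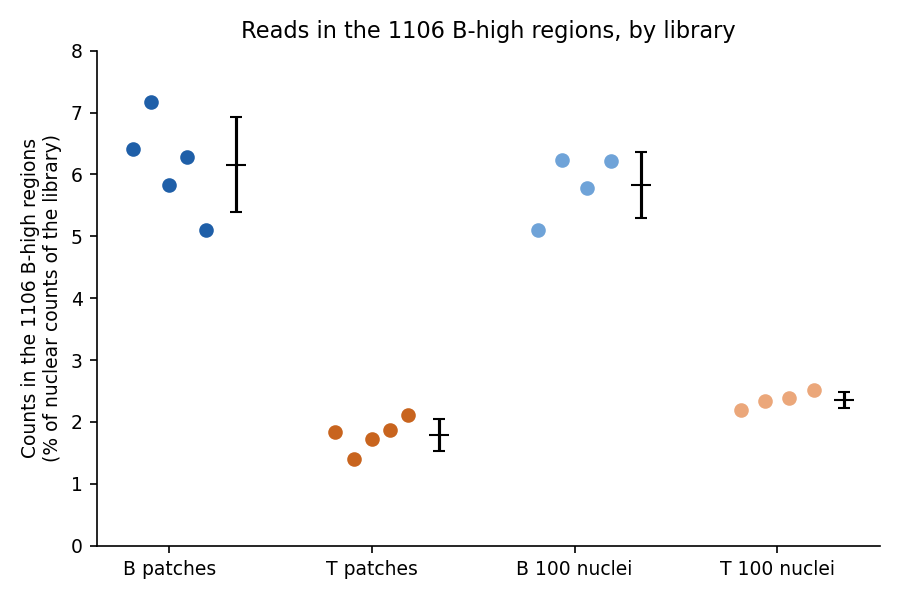
Percent of each library's nuclear counts (y axis) in the 1106 B-high regions, for B patches, T patches, B 100 nuclei and T 100 nuclei (x axis). Coloured points are libraries and black marks the mean ± SD of 5, 5, 4 and 4 libraries. The patch values chose the regions. At 100 nuclei the B libraries sit between 5.10% and 6.24% and the T libraries between 2.197% and 2.52%.

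Detection followed the same order. B libraries of 100 nuclei had at least 1 read in 45.5%, 52.4%, 41.0% and 59.4% of the B-high regions, and T libraries in 25.6%, 27.5%, 10.0% and 8.77%. Of the comparison regions, the same B libraries had reads in 43.3%, 44.3%, 36.0% and 51.0% and the T libraries in 49.5%, 48.8%, 18.8% and 15.6%. Each B library thus read the B-high regions more often than the comparison regions, and each T library read them less often, T libraries 1 and 2 included. The sets were not matched for level: the median of mean B patch CPM was 40.1 at B-high and 29.45 at comparison regions. Reads in 4 of 4 B and 0 of 4 T libraries were found at 35 B-high regions (3.16%), against 0.493% of comparison regions, and the reverse at 0 B-high regions and 0.0448% of comparison regions. Without T libraries 3 and 4, 42 B-high regions (3.797%) had reads in 4 of 4 B and neither T library, against 0.711% of comparison regions, and 0 the reverse, against 2.06%. A larger share of the B than of the T libraries had reads at 791 B-high regions (71.5%) and a smaller share at 60 (5.42%), where comparison regions had 47.1% and 21.6%. T libraries 3 and 4 bear on this count: without them the numbers were 657 (59.4%) and 158 (14.3%), where comparison regions had 30.99% and 40.02%. No library of 100 nuclei had a read at 111 of them. A region with 0 counts at these depths is not shown to be closed.

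**Figure D2:**
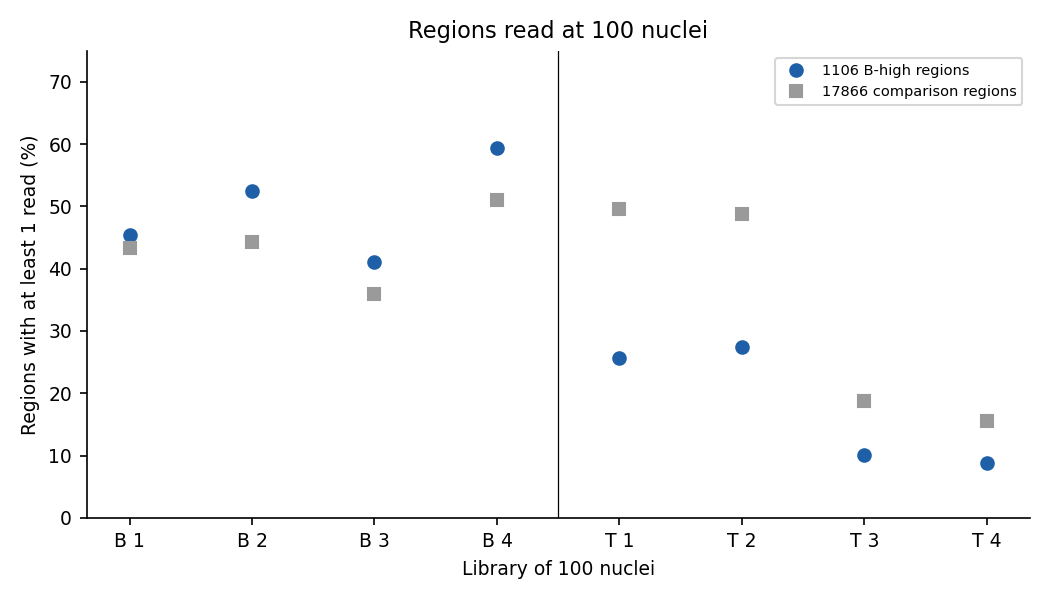
Percent of regions with at least 1 read (y axis) in each library of 100 nuclei (x axis, B libraries left of T libraries). Blue circles are the 1106 B-high regions and grey squares the 17866 comparison regions. The circles lie above the squares in the 4 B libraries (41.0% to 59.4% of B-high regions read) and below them in the 4 T libraries (8.77% to 27.5%).

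Of the 995 B-high regions with reads at 100 nuclei, 825 (82.9%) had a higher mean CPM in B and 170 in T. The share higher in B was 56.9% among comparison regions and 55.9% among all 22218 nuclear regions with reads. Without T libraries 3 and 4 it was 84.2% (829 of 985) for the B-high regions and 54.9% for comparison regions. Each of the 4 B libraries exceeded each of the 4 T libraries at 56 B-high regions (5.06%), against 1.16% of comparison regions and 0.971% of all nuclear regions. No B-high region was fully higher in T. Without T libraries 3 and 4, 76 B-high regions (6.87%) were fully higher in B and 6 (0.542%) fully higher in T, against 1.84% and 6.03% of comparison regions and 1.49% and 4.97% of all nuclear regions.

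No single region passed a test at this capture size. The edgeR quasi-likelihood test with Benjamini-Hochberg adjustment called 0 of 25567 nuclear regions (0%), and DESeq2 also called 0. At an unadjusted p under 0.05, edgeR had 1270 regions and DESeq2 2153. Of the 1100 B-high regions tested (6 did not pass the filter on low counts), 184 (16.7%) were higher in B at an unadjusted edgeR p under 0.05 and 0 higher in T, where 3.85% of all tested regions were higher in B at that level. Without T libraries 3 and 4 it was 57 of 985 (5.79%), where 1.19% of all 21217 tested regions were higher in B. With any 1 library left out it was 80 to 131 (8.08% to 13.7%), where all tested regions had 1.52% to 3.23%. The fitted log2 fold change of B over T had a median of 2.68 over the B-high regions and 0 over all regions. These medians depend on the T libraries: they were 5.62 and 1.41 without T library 1, 5.82 and 1.44 without T library 2, and 4.22 and 0.21 without T libraries 3 and 4. In patches, 310 of the 1100 were called higher in B by the same test, where 1.27% of all tested regions were. Since patches chose the regions, nothing is read from that count.

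The share of B-high regions higher in B at 100 nuclei was larger in classes with a larger fold in patches. It was 72.2% of 72 regions with a patch fold under 2, 78.7% of 253 at 2 to 4, 84.4% of 378 at 4 to 8, and 87.3% of 292 at 8 or more. The ratio of the mean share of counts, B over T at 100 nuclei, was 1.30, 2.25, 3.599 and 4.09 in the same order. Without T libraries 3 and 4 the shares higher in B were 65.3%, 80.8%, 87.7% and 87.2%, so the highest class no longer exceeded the class of 4 to 8, and the ratios were 1.23, 2.47, 3.93 and 4.41. Read depth differed along this order, since the median B patch CPM was 120.4 in the lowest class and 28.4 in the highest. The classes also differed in position: 68.1% of the regions with a patch fold under 2 lay within 1 kb of a gene end, against 22.4%, 11.2% and 7.39% in the other classes.

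**Figure D3:**
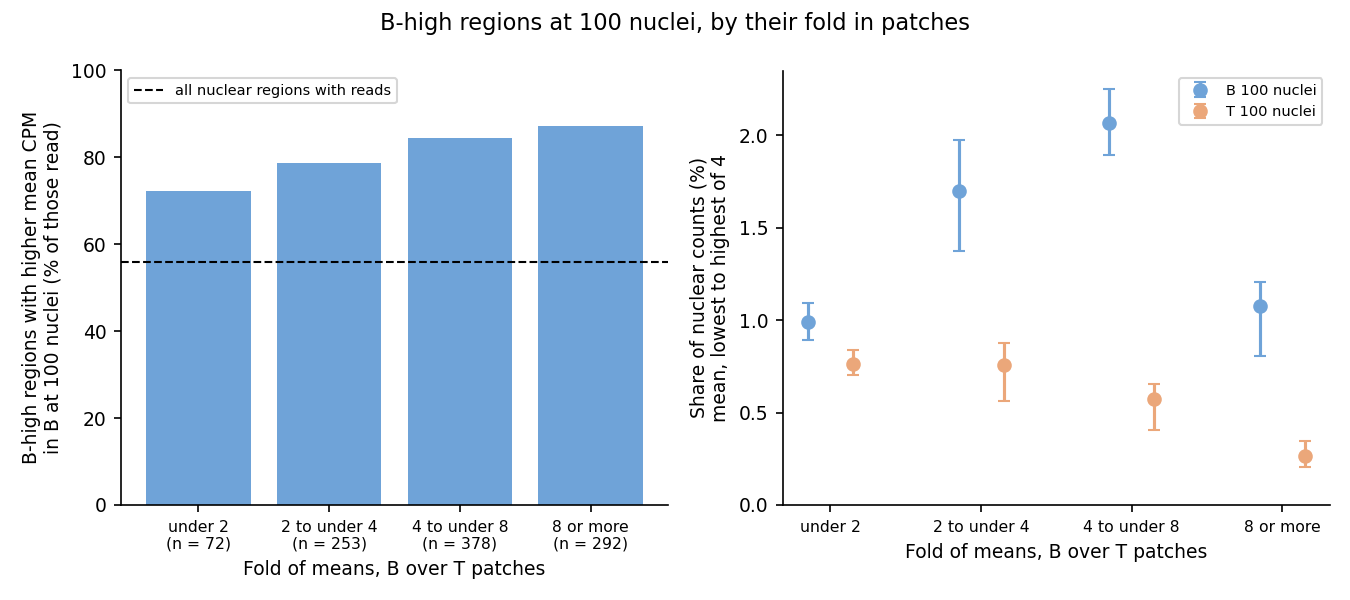
Left, percent of B-high regions read at 100 nuclei whose mean CPM was higher in B (y axis), by their fold of means in patches (x axis, with the number of regions read); the dashed line is the 55.9% of all nuclear regions with reads. Right, percent of nuclear counts in each class (y axis) for B and T libraries of 100 nuclei; points are means and bars span the lowest to the highest of 4 libraries. The share rises from 72.2% to 87.3% along the classes, and the bars of B and T do not overlap in any class.

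Most B-high regions lay away from gene ends. Within 1 kb of an end of a protein-coding gene were 16.4% of them (181), against 54.7% of comparison regions. Inside genes, over 1 kb from an end, were 44.1% (488) against 27.2%. Outside genes at 1 to 50 kb were 26.2% against 13.7%, and beyond 50 kb 13.3% against 4.42%. The B-high regions were also narrower, with a median width of 235.5 bases against 274 bases. At 100 nuclei, 74.0% of the gene-end regions with reads (125 of 169) were higher in B, against 84.7% (700 of 826) of those further away. Without T libraries 3 and 4 the shares were 76.8% and 85.7%. The median patch fold was 3.15 at gene ends and 6.06 away from them.

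**Figure D4:**
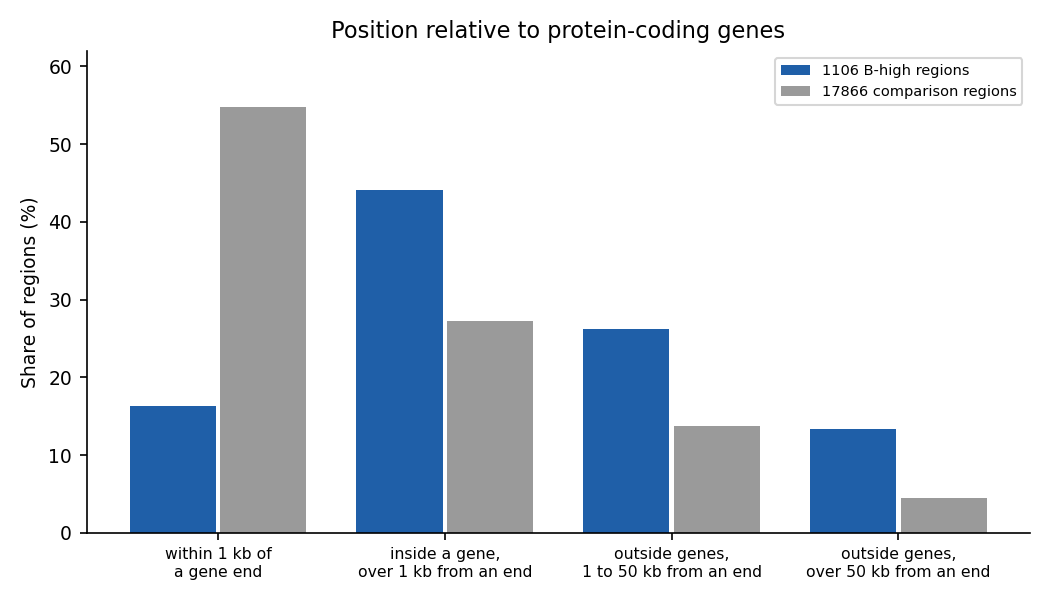
Percent of regions (y axis) in each of 4 position classes relative to protein-coding genes (x axis), for the 1106 B-high regions (blue) and the 17866 comparison regions (grey). Within 1 kb of a gene end are 16.4% of the B-high and 54.7% of the comparison regions, and inside genes 44.1% and 27.2%.

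B-high regions also lay near each other: 243 of them (21.97%) had another within 10 kb. Of 1087 regions of at least 10 CPM that had a B-high neighbour within 10 kb, 22.4% were themselves B-high, against 5.83% of all such regions. Over the autosomes and the X chromosome, the B-high share ran from 3.07% on the X chromosome to 9.77% on chromosome 13, and the Y chromosome had 0 of 2 such regions. A gene within 50 kb was assigned to 878 (79.4%) of the B-high regions, giving 708 genes, and 99 regions (8.95%) were assigned to genes of the 5 B cell lists. The lists, like the regions, were drawn up with results of these data known, so their counts are descriptions.

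Regions at B cell identity genes, which encode the surface receptors and factors that define the lineage, were often B-high. Of 111 regions of at least 10 CPM, 43 (38.7%) were B-high, at 25 genes, where 5.83% of all such regions were. At 100 nuclei 39 of the 42 with reads were higher in B, and 37 without T libraries 3 and 4. Among all B-high regions with reads, 82.9% and 84.2% were, so a high share is common to the set. At Cr2, which encodes a complement receptor of mature B cells, the region over the promoter (chr1:195176439-195176934) had 2.59, 77.5, 101 and 153 CPM in B and 0 in all 4 T libraries (edgeR, unadjusted p = 0.0252, Benjamini-Hochberg adjusted p = 0.351, n = 4 each). Patches had 143, 91.7, 129.8, 116 and 81.2 CPM in B and 36.1, 19.2, 8.31, 14.1 and 6.15 CPM in T. The region 678 bases outside Ebf1 (chr11:44617105-44617422) had 155, 0, 55.3 and 144 CPM in B and 0 in all 4 T libraries at 100 nuclei (adjusted p = 0.351 in edgeR). In patches it was at 136, 149.7, 114, 136 and 108 CPM in B and 14.4, 3.48, 4.24, 8.75 and 46.4 CPM in T, with T library 5 the highest of the T libraries. Thus 3 of the 4 B libraries of 100 nuclei had reads at Ebf1 and all 4 at Cr2.

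Pax5, the factor that commits cells to the B lineage, had 3 B-high regions. The one over its promoter (chr4:44710807-44710996), 113 bases outside the gene, had 62.1, 82.5, 45.3 and 48.9 CPM in B and 0 in all 4 T libraries of 100 nuclei (edgeR, unadjusted p = 0.0415, Benjamini-Hochberg adjusted p = 0.351). All 4 B libraries had reads, each above the highest of the B patches. Patches had 36.8, 40.8, 44.3, 34.9 and 39.1 CPM in B and 18.7, 26.1, 2.77, 14.1 and 8.38 CPM in T. Near Ms4a1, which encodes CD20, reads were uneven: the region over a gene end (chr19:11266050-11266484) had 0, 382, 0 and 156 CPM in B and 0, 134, 0 and 0 CPM in T, so the groups overlapped (adjusted p = 0.944 in edgeR). In patches they were at 96.4, 110.5, 79.2, 108 and 78.1 CPM in B and 14.8, 4.07, 4.56, 0 and 20.7 CPM in T. Bcl11a, a transcription factor of early and mature B cells, had 5 B-high regions. Their summed CPM was 308, 242, 664 and 174 in B and 0 in all 4 T libraries of 100 nuclei. In patches, the same 5 regions had 308, 458, 312, 266 and 217 CPM in B and 22.3, 87.1, 50.4, 61.6 and 92.2 CPM in T.

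At some B-high regions the B and T libraries of 100 nuclei did not stand apart as the patches did. The region inside Cxcr5 (chr9:44522022-44522247), the chemokine receptor that draws B cells into follicles, had 67.3, 4.998, 83.0 and 82.5 CPM in B and 0, 187, 0 and 0 CPM in T, with 1 T library above every B library. The mean there was still higher in B, at 59.45 against 46.83 CPM. Beside Vpreb3 (chr10:75949765-75949924), a protein that assists assembly of the pre-B cell receptor, the 4 B libraries were at 0 and T library 2 was at 71.3 CPM. Plek, a protein kinase C substrate of blood cells, was in none of the lists. Its promoter region (chr11:17008522-17008865) had 0, 2.50, 0 and 0 CPM in B and 28.9, 1.40, 0 and 207 CPM in T. In patches the Plek region was at 54.5, 101, 43.8, 65.8 and 37.4 CPM in B and 10.5, 0, 4.73, 11.1 and 9.502 CPM in T. These 3 were picked after their values were seen.

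Regions at genes of B cell receptor and Toll-like receptor signalling were B-high in 26 of 108 cases (24.1%), at 14 genes. Of all regions of at least 10 CPM, 5.83% were B-high. At 100 nuclei 24 of the 26 were higher in B, with or without T libraries 3 and 4, against 82.9% and 84.2% of all B-high regions with reads. Syk, the kinase that couples the receptor to its cascade, had 3. The one 9619 bases outside the gene (chr13:52572484-52572991) had 192, 292, 126 and 168 CPM in B and 18.8, 105, 31.6 and 0 CPM in T, with no overlap (log2 fold change 2.33 ± 2.05 (SE), adjusted p = 0.667 in edgeR). It was 3.93 without T library 2 and 1.52 without T libraries 3 and 4. The region inside Vav2 (chr2:27311653-27312077), an exchange factor that acts below the receptor, had 132, 242, 146 and 119 CPM in B and 28.9, 0, 0 and 0 CPM in T (4.27 ± 2.63 (SE), adjusted p = 0.351). T library 1 was the only T library of 100 nuclei with reads there, and without it the fitted log2 fold change was 9.32. With all remaining T libraries at 0, a fitted value like that is not a measured fold. Outside Cd180 (chr13:102689561-102689709), a Toll-like receptor homologue on B cells, the values were 64.7, 72.5, 0 and 94.8 CPM in B and 0 in all 4 T libraries (adjusted p = 0.351). Patches had 70.2, 69.2, 30.9, 51.5 and 19.8 CPM in B and 0.657, 0, 3.42, 0.336 and 0 CPM in T at Cd180, where T library 3 was the highest.

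MHC class II genes, whose products present antigen to helper T cells, had the highest B-high share of the lists. It was 21 of 40 regions (52.5%), at 10 genes, where 5.83% of all regions of at least 10 CPM were B-high. At 100 nuclei 18 of the 20 with reads were higher in B, with or without T libraries 3 and 4, against 82.9% and 84.2% of all B-high regions with reads. The region 4374 bases outside H2-Eb1 (chr17:34301195-34301493), which encodes a class II beta chain, had 69.9, 157, 269 and 147 CPM in B and 0 in all 4 T libraries (edgeR, unadjusted p = 0.00327, Benjamini-Hochberg adjusted p = 0.351). In patches it was at 96.9, 83.7, 109.5, 94.9 and 106 CPM in B and 9.85, 0.581, 11.4, 41.7 and 18.4 CPM in T. All 4 regions of at least 10 CPM assigned to H2-Eb1 were B-high. At Cd74, the invariant chain that escorts class II molecules, the B libraries spread widely, with 256, 589.8, 5.03 and 125 CPM in B and 83.8, 32.1, 0 and 0 CPM in T at the region over a gene end (chr18:60803439-60803973; 2.94 ± 1.97 (SE), adjusted p = 0.401). B library 3 was below T libraries 1 and 2 there. The B patches had 229.5, 139, 252, 227 and 151 CPM and the T patches 34.5, 5.81, 54.9, 65.9 and 55.3 CPM at Cd74.

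Of 45 regions of at least 10 CPM at marginal zone and Notch genes 8 (17.8%) were B-high, where 5.83% of all such regions were. At 100 nuclei 5 of the 7 with reads were higher in B, and 7 of 7 without T libraries 3 and 4, against 82.9% and 84.2% of all B-high regions with reads. At 25755 bases from Hes1 (chr16:30039116-30039602), a repressor induced by Notch, the values were 106, 195, 138 and 125 CPM in B and 0, 21.0, 0 and 0 CPM in T (4.54 ± 2.83 (SE), adjusted p = 0.352 in edgeR). The groups did not overlap, and T library 2 alone had reads among T libraries. Without it the fitted log2 fold change at Hes1 was 9.14, which is not a measured fold, since the remaining T libraries were all at 0. In patches the Hes1 region was at 181, 129, 105, 76.6 and 137 CPM in B and 13.46, 29.0, 11.6, 12.8 and 47.2 CPM in T. Germinal centre and plasma cell genes had 1 B-high region of 16 (6.25%), near the 5.83% of all regions of at least 10 CPM. That region lay 12214 bases from Irf4 and had no reads at 100 nuclei.

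**Figure D5:**
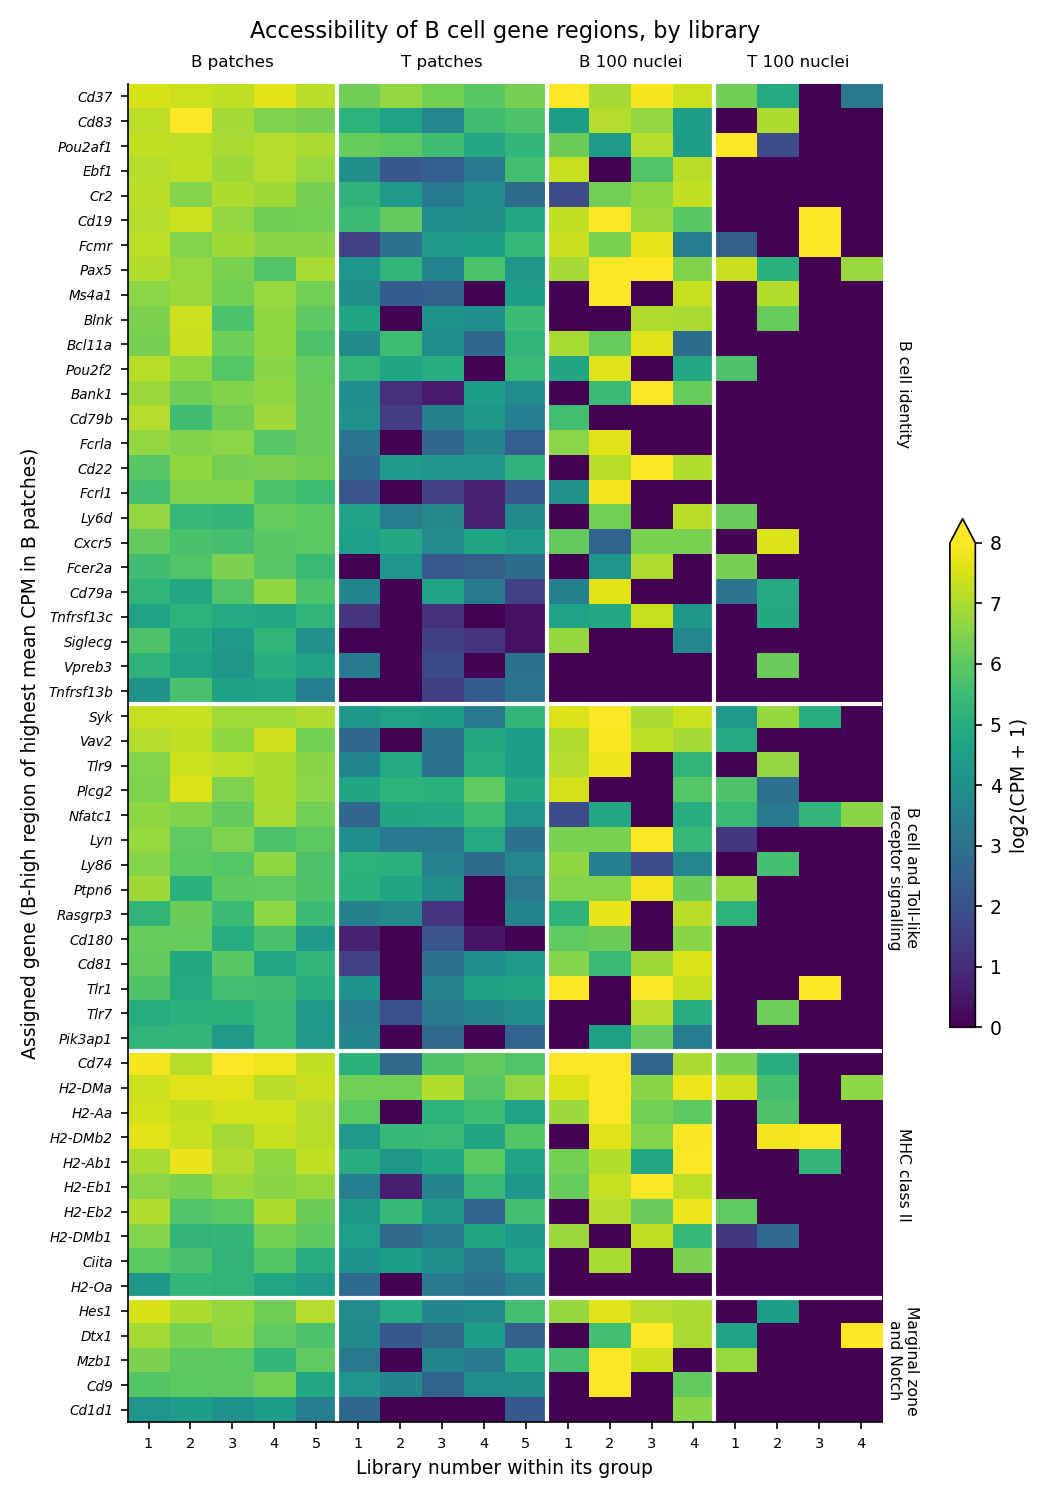
Accessibility, as log2(CPM + 1) by colour (values above 8 share the top colour), at the B-high region of highest mean B patch CPM of each gene (rows) in each of the 18 libraries (columns, B patches, T patches, B 100 nuclei and T 100 nuclei). Rows are grouped into B cell identity, B cell and Toll-like receptor signalling, MHC class II, and marginal zone and Notch genes. The patch values chose the regions. At 100 nuclei dark cells are libraries without reads, more frequent in T, and T libraries 3 and 4 are dark in most rows.

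The immunoglobulin loci encode the receptor itself, and all 3 held or bordered B-high regions. Within 50 kb of the lambda locus 10 of 17 regions of at least 10 CPM (58.8%) were B-high. The kappa locus had 6 of 16 (37.5%) and the heavy chain locus 3 of 14 (21.4%), against 5.83% of all regions of at least 10 CPM. The heavy chain regions lay 27.3 to 33.1 kb beyond Igha, on the side where the regulatory region of the locus is known to lie, and had been assigned to Tmem121. One of them (chr12:113228565-113228915) had 204, 219.9, 52.8 and 107 CPM in B and 0 in all 4 T libraries of 100 nuclei (edgeR, unadjusted p = 0.00431, Benjamini-Hochberg adjusted p = 0.351). In patches it was at 57.7, 36.0, 55.4, 104 and 44.9 CPM in B and 9.19, 0, 10.8, 30.9 and 22.9 CPM in T. Beyond the kappa locus, 8.77 kb from its end, a region (chr6:70735523-70735924) had 54.3, 415, 57.8 and 116 CPM in B and 4.33, 65.7, 0 and 0 CPM in T (3.05 ± 2.38 (SE), adjusted p = 0.548), with B library 2 far above the others. T library 2 exceeded B libraries 1 and 3 there, so the groups overlapped. The log2 fold change was 1.99 without B library 2 and 6.47 without T library 2. Summed over the 10 lambda regions, the libraries of 100 nuclei had 259, 775, 191 and 223 CPM in B and 15.9, 219.5, 0 and 546 CPM in T, with T library 4 high through 1 region of 545.9 CPM. The 6 kappa regions together had 178, 415, 246 and 159 CPM in B and 27.4, 65.7, 0 and 0 CPM in T, without overlap.

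With 3 or more B-high regions each there were 35 genes, of which 15 were in the lists and 20 were not. Among the 20, Hira, Rpia and Tmem121 were assigned regions at or near the lambda, kappa and heavy chain loci described above. Scd1, a fatty acid desaturase outside the lists, led with 6 of its 9 regions. The Scd1 regions together had 235, 185, 551 and 419 CPM in B and 0, 101, 0 and 1204 CPM in T at 100 nuclei, where T library 4 was above every B library. Dok3, an adaptor that restrains B cell receptor signals, had 3 of 3 regions B-high, with 171, 207, 264 and 214 CPM in B and 7.22, 0, 0 and 0 CPM in T together. Those Dok3 groups did not overlap, and 3 of the 4 T libraries were at 0. Of the 4 regions at Fcrl1, an Fc receptor-like protein of B cells, the summed CPM was 119, 432, 108 and 0 in B and 0, 6.99, 0 and 0 in T. The region 5742 bases from Rassf4, a Ras-association domain protein, had 0, 130.0, 186 and 263 CPM in B and 0 in all 4 T libraries (edgeR, unadjusted p = 0.00444, Benjamini-Hochberg adjusted p = 0.351).

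The most accessible B-high regions had small folds in patches. The 10 highest by mean B patch CPM, at Arrdc3, Ripk2, Sertad2, Ube2d3, Far1, Osbp, Pcmtd1, Inpp5f, Bard1 and Phtf2, had patch folds of 1.33 to 1.75. At Zpbp2, whose product is known from sperm, the region over the promoter (chr11:98550899-98551655) had 184, 319.9, 397 and 434 CPM in B and 34.7, 30.8, 12.1 and 45.5 CPM in T. Those groups did not overlap (3.75 ± 1.85 (SE); edgeR, unadjusted p = 0.0424, Benjamini-Hochberg adjusted p = 0.351), although the patch fold was 1.52, from 227, 272, 204, 256 and 206 CPM in B patches and 129, 163, 164, 114 and 198 CPM in T patches. Other regions ran the opposite way. At Ube2d3, a ubiquitin-conjugating enzyme, the promoter region (chr3:135437950-135438934) had 334, 582, 425 and 342 CPM in B and 441, 598, 973 and 695 CPM in T (-0.24 ± 1.141 (SE), adjusted p = 1), and the groups overlapped. The log2 fold change there was -0.06 without T library 2 and -0.69 on library size alone, as the widest of the alternatives. Along with Ube2d3, the regions at Sertad2, Rpa3, Tmem170b and Meak7 were the 5 with most reads among those with a higher mean in T at 100 nuclei. All 5 lay at gene ends, with patch folds of 1.26 to 1.70.

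Other cell types' marker genes had 5 B-high regions. T cell identity genes had 1 of 54 regions (1.85%), 13050 bases from Ccr7, a chemokine receptor that naive B cells also use. NK cell genes had 0 of 10, and erythroid and megakaryocyte genes 0 of 1. Stroma and endothelium genes had 1 of 5 (20%), inside Cdh5. No region was assigned to any of the 8 neutrophil genes. Macrophage genes had 1 of 5 (20%, at Adgre1) and dendritic cell genes 2 of 16 (12.5%, both at Irf8, which B cells express as well). These shares rest on 5 to 16 regions and lay above the 5.83% of all regions of at least 10 CPM, while those of T and NK cell genes lay below it. The summed levels of the macrophage and dendritic cell lists, given next, include the B-high regions at Adgre1 and Irf8. Patch values chose those regions, so nothing is read from the patch levels. Macrophage regions, at 4 of 14 genes, took 0.0187% to 0.0301% of nuclear counts in B patches and 0.00592% to 0.0182% in T patches. At 100 nuclei they took 0.0135% to 0.0307% in B and 0% to 0.0112% in T. Among the macrophage genes without any region were Lyz2, Cd68, C1qa, C1qb, C1qc, Spic, Marco, Siglec1, Mertk and Fcgr1. Dendritic cell regions, at 7 of 11 genes, took 0.0548% to 0.0661% in B patches and 0.0233% to 0.0367% in T patches, and overlapped at 100 nuclei (0.0621% to 0.0830% in B and 0.0134% to 0.111% in T). Zbtb46, Itgax, Xcr1 and Cd209a had no region. NK cell regions, none of them B-high, took 0.0227% to 0.0290% in B patches and 0.0316% to 0.0470% in T patches. Stroma and endothelium regions, with the B-high one inside Cdh5 included, overlapped in patches. They took 0.0124% to 0.0190% in B patches and 0.0189% to 0.0303% in T patches. At 100 nuclei B and T overlapped for both of these lists. The part of these cells in the B-high regions was not tested.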

How the data were processed

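The authors deposited raw whole-number counts of ATAC-seq reads for 27396 regions, 4 of them mitochondrial, in 18 libraries. The submitters' processing notes name MACS2 2.2.7.1, Bowtie2 2.4.5, SAMtools 1.14, Picard, Trimmomatic 0.36, deepTools 3.5.2, bcl2fastq 2.20 and R 4.1.0, and build mm10. The role of each tool, duplicate removal, a transposase shift and whether starts count from 0 or 1 are not stated there. No molecular identifiers are stated, so counts need not be independent molecules.

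CPM were computed from the deposited counts over nuclear regions. Tests used edgeR 4.0.16 in R 4.3.3 (TMM, filterByExpr with a minimum count of 10, quasi-likelihood F-test, Benjamini-Hochberg adjustment at 0.05) on the 25567 nuclear regions past the filter, with DESeq2 1.42.0 as an alternative. The SE printed with an edgeR log2 fold change was derived, as its absolute value divided by the square root of the F statistic. It is thus an approximate scale and not an estimate from the fit. Tables were handled in Python 3.11.15. Regions went to the protein-coding gene of RefSeq's GRCm38.p6 table, which shares the coordinates of mm10, with the nearest end within 50 kb. Libraries were not paired by replicate number in the fit reported: deviations of same-numbered libraries correlated at -0.0072 to 0.0323. Whether same-numbered libraries shared a section or an animal was not tested. No pair of libraries within a group agreed within sampling noise.

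The regions, the 12 gene lists and the motifs were chosen with earlier results of these data known. Named regions are those of highest CPM or counts, those at list genes, genes with 3 or more regions, regions higher in T at 100 nuclei, and those nearest each limit; the part printed, and those at immunoglobulin loci, were picked after values were seen.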

Additional observations from a re-analysis of the deposited data

Results flagged for a closer look

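Of 112 groups of 4 or 5 libraries examined, 17 had 1 library far from the rest. Chance flags about 1 in 20 groups, a rate not shown to hold for libraries at 0 or for regions picked after their values were seen. Of the 17, 12 were at 100 nuclei, mostly a single library with reads among libraries at 0. In patches, T library 2 had reads at 52.6% of the B-high regions, and the other T patches at 81.2% or more. Of the comparison regions, B patch library 2 had reads at 89.8% and the other B patches at 98.2% or more, and T patch library 2 at 83.0% and the other T patches at 95.9% or more. T patch library 5 stood at 46.4 CPM at the Ebf1 region, and the other T patches at 14.4 CPM or less. At the Cd180 region T patch library 3 stood at 3.42 CPM, and the others at 0.657 CPM or less.

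At 100 nuclei, T library 2 was the library far above the other T libraries in 6 of these cases, Fcrl1 among them. It had 134.2 CPM at Ms4a1, 20.97 CPM at Hes1, 187.3 CPM at Cxcr5 and 71.3 CPM at Vpreb3, with the other T libraries at 0. At the region beyond the kappa locus it had 65.7 CPM, and the others 4.33 CPM or less. T library 1 had 28.9 CPM at Vav2, with the other T libraries at 0. At Plek, B library 2 had 2.50 CPM and the other B libraries 0, and T library 4 had 206.8 CPM, with the other T libraries at 28.9 CPM or less. Summed over the lambda regions, B library 2 had 774.7 CPM and the other B libraries 258.7 CPM or less. Summed over the Scd1 regions, T library 4 had 1204 CPM and the other T libraries 100.7 CPM or less. Over the Dok3 regions T library 1 had 7.22 CPM, and over the Fcrl1 regions T library 2 had 6.99 CPM, with the other T libraries at 0.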

How the results depend on the processing

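The number of B-high regions was 1133 at a minimum of 5 CPM, 944 at 20 CPM, 1128 on TMM-scaled CPM and 1120 with DESeq2 size factors, of which 1054 and 1077 were among the 1106. With 1 patch library left out it ran from 1238 to 1532, and without both patch libraries numbered 2, an alternative chosen after seeing the data, it was 1902. The share of nuclear counts at 100 nuclei, B minus T, lay between 3.34 and 3.72 points over every alternative run, against 3.48. The count of B-high regions higher in B at 100 nuclei ran from 737 to 843 with 1 library left out, and was 869 on TMM-scaled CPM (87.3%, where all regions with reads had 58.4%). Within 5 kb of a gene end lay 32.3% of the B-high and 66.8% of the comparison regions. Counting ends of genes of all biotypes, added after seeing the data, gave 22.2% within 1 kb. At 100 nuclei every alternative left 0 B-high regions called, and the replicate block had 14 of 995 higher in B at an unadjusted p under 0.05, where 57 of all 21738 regions were. With mitochondrial regions kept, added after seeing the data, edgeR called 4 regions at 100 nuclei, none of them B-high, and 298 B-high regions in patches. Of regions called higher in B in patches, 310 of 324 were B-high in the fit reported, 728 of 910 with DESeq2 and 113 of 117 with the replicate block. With 1 library left out it was 109 of 110 (without B library 1) to 356 of 419 (without T library 2). The same patch libraries chose the B-high regions, so nothing is read from these counts. No single region named with a test changed sign in any fit, but some sizes moved. At Ms4a1 the log2 fold change was 1.90, against 0.63 without B library 2, 9.13 without T library 2 and 0.92 without T libraries 3 and 4. The 9.13 is from a fit whose T libraries were all at 0, so it is not a measured fold. With the replicate block it was 7.86 at Vav2, 7.57 at Hes1 and 5.21 beyond the kappa locus. The depth at 100 nuclei limits single regions: 1 read is 1.40 to 4.14 CPM, depending on the library.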
